A study of Mus musculus with 179 samples.

Results

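S100 genes encode small calcium-binding proteins, and 9 of them are described here in single mouse cells grown from pancreatic acinar tissue: S100a1, S100a4, S100a6, S100a10, S100a11, S100a13, S100a14, S100a16 and S100b. They were chosen by name out of the 32100 gene identifiers in the deposited tables. RNA was read in single cells, named Acinar followed by a number, with Smart-seq3, a plate method that counts molecules through unique molecular identifiers (UMIs). All cells belong to 1 group: wild type C57BL6 mice, exocrine pancreas, labelled acinar cell, freed by digestion and a density gradient and then grown for 9 days as organoids in the basement membrane gel Matrigel. No animal or culture is named for any cell, so cells are not replicates. All values are therefore descriptions, without tests, and their intervals cover counting error only.

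An S100 protein holds a pair of EF hands, helix-loop-helix motifs that bind calcium, and most members work as dimers that open a groove for partner proteins once calcium is bound. They have no enzyme activity of their own and act through partners such as annexins, cytoskeletal proteins and, for members released from cells, surface receptors. Most S100 genes lie in 1 cluster, on chromosome 3 in the mouse, and in epithelia several of them are high in duct-like, wound and tumour cells.

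The cells had a median of 165267 UMIs (3258 to 329522), and all but 18 of them had at least 40000. Levels are given as UMIs per 1000000 UMIs (CPM), either per cell or pooled over cells with an exact 95% Poisson interval. The labelled acinar identity showed in few transcripts: 16 digestive enzyme genes summed to 129.3 CPM in the median cell, whereas the keratins Krt7, Krt8, Krt18 and Krt19, filament proteins of ducts and simple epithelia, summed to 12991 CPM. In 6 cells (Acinar5, Acinar6, Acinar44, Acinar105, Acinar182 and Acinar188) a list of 10 fibroblast genes led by Col1a1 and Col1a2 reached 3986 to 10956 CPM, against 0 to 274 CPM in the other cells. These are called fibroblast-rich below, and no S100 gene is on that list.

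The members took 6749 CPM of all UMIs (6719 to 6780), or 0.675%. The sum per cell ranged from 1151 CPM in Acinar52 through a median of 6271 CPM to 20407 CPM in Acinar155. Acinar52 was also the cell richest in digestive enzymes, which held 281888 CPM of its UMIs. S100a6, a protein of growing cells that binds annexins and a ubiquitin ligase adaptor, held 55.5% of the members' UMIs and was the highest member in 95.5% of cells. It stood at 3745 CPM (3722 to 3767) and was found in every cell. Its lowest, median and highest cells held 370, 3515 and 14390 CPM.

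S100a10 and S100a11 came next at nearly the same level. S100a10, the light chain that joins 2 annexin A2 molecules at the plasma membrane, stood at 989.6 CPM (978 to 1001), with 42.2 CPM in the lowest cell, 942 CPM in the median and 3086 CPM in the highest. S100a11, which pairs with annexin A1, stood at 954.7 CPM (943 to 966), with cells from 0 through a median of 876 to 2825 CPM. The cell at 0, Acinar110, had 7699 UMIs, a depth at which no count allows up to 390 CPM (3 counts). S100a10 exceeded S100a11 in 56.4% of cells and the reverse held in 41.3%, so their order did not stand apart from the spread over cells.

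The S100a11 level is uncertain, because near-identical copies of the gene also held UMIs. Its transcript has 9 annotated processed pseudogenes, intronless copies, at 80% identity or more, and 6 of them have an entry in the table. Gm7665, 98.7% identical over 297 bases, held 641 CPM, and Gm12854, 98.99% identical, held 146.3 CPM. Together the copies had 83.7% as many UMIs as S100a11 itself, and the sum of gene and copies stood at 1754 CPM. Whether those reads came from S100a11 was not tested.

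S100a14 and S100a16, members known from epithelia, formed a second pair of like level. S100a14 stood at 416 CPM (409 to 424), with cells from 0 through a median of 343 to 1662 CPM. S100a16 stood at 360 CPM (353 to 367), with cells from 0 through a median of 318 to 1341 CPM. S100a14 was the higher in 96 cells and S100a16 in 77, again with no order beyond the spread over cells.

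The next pair, S100a1 and S100a13, was lower but still near universal. S100a1, best known as a regulator of calcium handling in muscle, stood at 143.2 CPM (138.8 to 147.8) and had a UMI in all but 2 cells. S100a13, part of the complex that exports Fgf1 without a signal peptide, stood at 104.9 CPM (101.1 to 108.7) and had a UMI in all but 3 cells. Their cells reached 466 and 743 CPM, around medians of 131.9 and 81.2 CPM. S100a1 was above S100a13 in 77.7% of cells and below it in 18.4%.

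S100a4 and S100b were the least abundant and were missing from many cells. S100a4, a motility protein of mesenchymal and tumour cells that binds non-muscle myosin, stood at 23.3 CPM (21.6 to 25.2). S100b, known from glia and melanocytes, stood at 12.5 CPM (11.3 to 13.9). With the UMIs of each cell thinned to 40000 and the 18 shallower cells set aside, S100a4 had a UMI in 34.2% of cells (exact binomial interval 26.9% to 42.04%) and S100b in 24.8% (18.4% to 32.3%), whereas the 7 other members had one in 91.3% to 100%. S100a4 is overlapped by Gm42674, a gene model identical to it over 302 bases, which held 19.7% as many UMIs, so its level is uncertain as well.

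The order by UMIs was S100a6, S100a10, S100a11, S100a14, S100a16, S100a1, S100a13, S100a4, S100b. Per kilobase of annotated exon, the read counts gave S100a6 at 3152, S100a11 at 1809 and S100a10 at 809.9 reads per kilobase and 1000000 reads. On that scale the members from S100a14 down to S100b ran from 238 to 7.42 in the order they had by UMIs, and only S100a10 and S100a11 changed places.

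**Figure D1:**
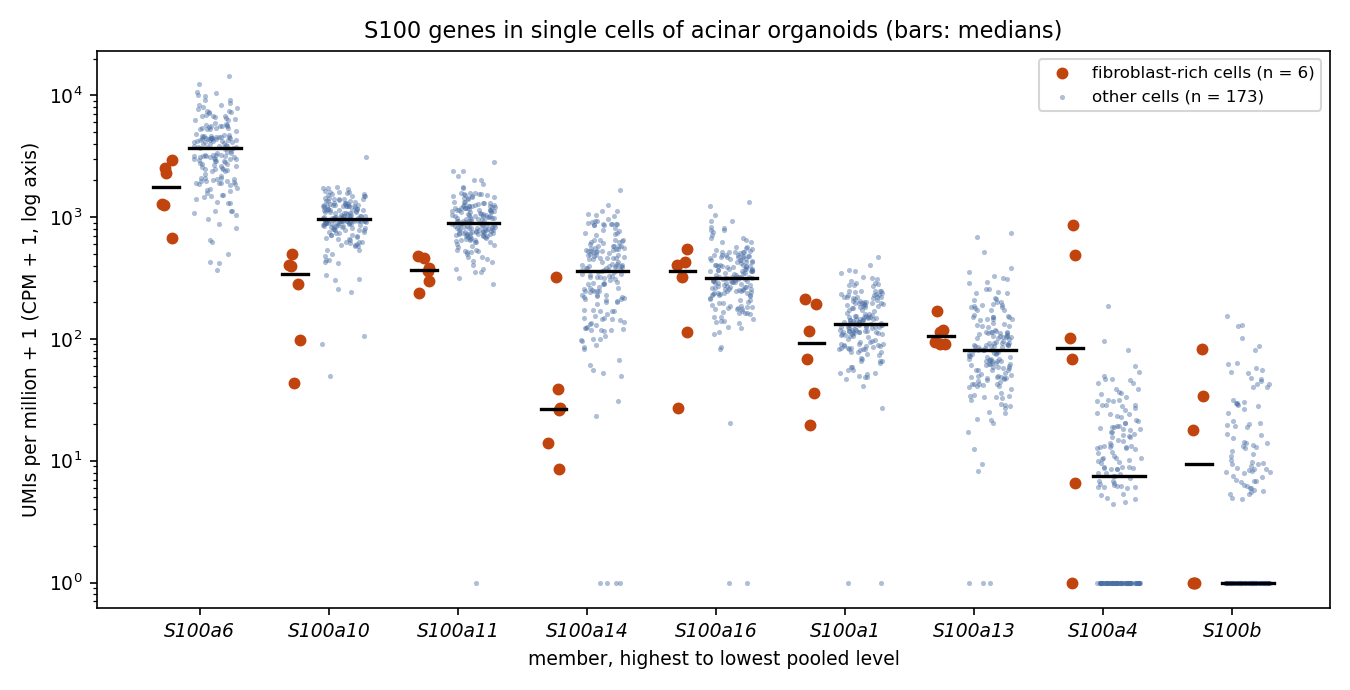
Level of each S100 gene in every cell, as CPM plus 1 on a log axis; red points are the 6 fibroblast-rich cells, blue points the other cells, and bars the medians. S100a6 has the highest median, and S100a4 reaches its 2 highest values, 855 and 492 CPM, in fibroblast-rich cells.

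Cells differed in their S100 levels by more than counting noise. The variation beyond that noise, set against genes of like abundance, was above the running median for all 9 members, and the median ratio was 5.12. By its construction a running median has about as many genes above it as below it. S100a4 had a ratio of 48.6, which placed it at percentile 98.1 of 13394 genes, and it was 3.23 when the fibroblast-rich cells were left out and 19.8 without Acinar5 alone. Among the abundant members S100a6 was the most uneven at 7.25 (percentile 89.9), followed by S100a14 at 5.78 (percentile 87.7). S100a1 at 1.38 and S100a10 at 1.39 were the most even. Without the fibroblast-rich cells the median ratio was 3.25.

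The 3 cells with most S100a6 were Acinar116 at 14390 CPM, Acinar155 at 12332 CPM and Acinar65 at 10625 CPM. Acinar116 held only 10563 UMIs, whereas the others had 143532 and 254298. The 3 cells with least were Acinar118 at 370 CPM, Acinar52 at 417 CPM and Acinar172 at 429 CPM. Of these, Acinar118 held 8117 UMIs, so that the extremes at both ends include shallow cells.

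Of the members, 8 lie on chromosome 3 of the mouse build GRCm38, in 2 places, and S100b lies alone on chromosome 10 (76253853 to 76261159). S100a1 (90511034 to 90514392, minus strand), S100a13 (90514435 to 90524581), S100a14 (90526856 to 90528837), S100a16 (90537254 to 90543151), S100a4 (90603771 to 90606045) and S100a6 (90612882 to 90624181) start within 98.5 kb of each other and are called the near group below. S100a11 (93520488 to 93526287) and S100a10 (93555080 to 93564643) start 34.6 kb apart, and S100a11 starts 2908 kb beyond S100a6. All but S100a1 are on the plus strand. Inside the near group lie members of the family that were close to silent, S100a2, S100a3 and S100a5, at 0.898 to 2.70 CPM. S100a6, the most abundant of all, starts 9.11 kb beyond S100a4, a gene of 23.3 CPM, with S100a5 between them.

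**Figure D2:**
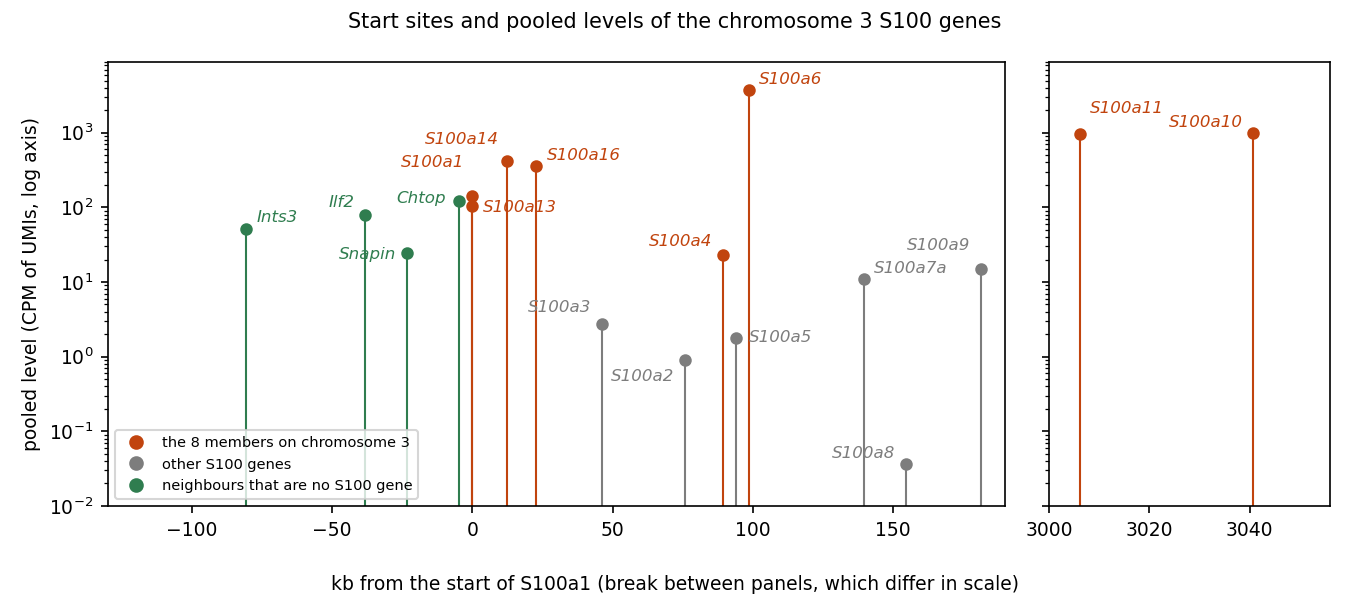
Start sites of the chromosome 3 genes, in kb from the start of S100a1, against pooled level in CPM on a log axis; red marks the 8 members there, grey the other S100 genes and green neighbours outside the family, and the panels differ in horizontal scale. Levels of adjacent genes differ widely, with S100a6 at 3745 CPM and S100a5, which starts next to it, at 1.76 CPM.

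Promoter sequences were taken from RefSeq (GRCm38.p6), where 7 of the 9 members have an entry; S100a10 and S100a14 have none. S100a6 is shown as the most abundant member, and S100a11 for its AP-1 and GC box letters. S100a4 is shown as the near-group member whose levels went least with the others. The S100a1 and S100a13 interval is shown because both genes start from it in opposite directions. The first 3 are the 250 bases before the start on the plus strand, at chr3:90612644-90612893, chr3:93520246-93520495 and chr3:90603520-90603769, and the last is the whole interval between the 2 RefSeq starts, at chr3:90514331-90514434. Capitals mark a CCAAT box (CCAAT) in S100a6, AP-1 (TGANTCA) and GC box (GGGCGG) letters in S100a11, a TATA box (TATAAA) and CACCC letters in S100a4, and CACCC in the shared interval, on either strand.
S100a6: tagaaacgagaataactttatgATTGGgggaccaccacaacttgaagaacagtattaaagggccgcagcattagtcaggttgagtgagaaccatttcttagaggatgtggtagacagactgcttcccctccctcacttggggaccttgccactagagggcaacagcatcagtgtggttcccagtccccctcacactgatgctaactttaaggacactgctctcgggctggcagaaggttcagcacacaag
S100a11: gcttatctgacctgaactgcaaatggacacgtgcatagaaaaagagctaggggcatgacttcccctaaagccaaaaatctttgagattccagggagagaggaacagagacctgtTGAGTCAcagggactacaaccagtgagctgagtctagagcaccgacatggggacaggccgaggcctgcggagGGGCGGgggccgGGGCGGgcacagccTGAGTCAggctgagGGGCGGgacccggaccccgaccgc
S100a4: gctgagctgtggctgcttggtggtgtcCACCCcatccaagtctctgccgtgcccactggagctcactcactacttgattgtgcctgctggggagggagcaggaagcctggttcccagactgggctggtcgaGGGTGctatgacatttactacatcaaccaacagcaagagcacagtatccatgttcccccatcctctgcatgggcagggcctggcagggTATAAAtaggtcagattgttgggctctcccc
S100a1-S100a13: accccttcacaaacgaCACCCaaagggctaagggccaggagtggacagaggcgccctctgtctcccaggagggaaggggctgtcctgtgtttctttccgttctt

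The S100a11 promoter held 2 AP-1 matches, which end 130 and 32 bases before the start, and 3 GC boxes within the last 64 bases. Of the 32851 promoters in the table, 6.75% hold the AP-1 letters in the same window and 32.7% hold a GC box. The S100a4 promoter has a TATA box 31 to 26 bases before the start, a position typical of that element, and 12.4% of all promoters hold its letters. The CCAAT letters of S100a6 lie on the minus strand 228 to 224 bases before the start and occur in 33.8% of all promoters. CACCC is common, with a match in 52.01% of promoters. S100a16 has 2 promoter entries, and the second holds an AP-1 match and, 30 to 25 bases before its start, a GC box. A search for GGAATG, the letters read by TEAD factors, which 12.6% of promoters hold, found no match in the 250-base windows of the 7 members. None of the marked stretches overlap, and a match says only that the letters are there.

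Levels of the near-group members other than S100a4 went up and down together across cells. Across all cells the Spearman rank correlation (rho) of CPM was at least 0.3 for 15 of the 28 pairs of chromosome 3 members, against 2.58% of 67960311 pairs among the 11659 genes that averaged 1 UMI per cell or more. The median rho was 0.34 for those 28 pairs and 0.06 for all gene pairs. All points of a correlation share the cells' libraries and depth. The members were named with such a pattern already known, so these counts describe it and lend it no further weight.

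Within the near group the strongest pairs joined S100a6, S100a14, S100a16 and S100a13. S100a6 with S100a14 had a rho of 0.73, S100a14 with S100a16 of 0.61, S100a6 with S100a16 of 0.59 and S100a6 with S100a13 of 0.56. Leaving out S100a4, each of the 10 pairs in the group was at 0.33 or above. S100a4 was the exception, with rho between -0.03 and 0.20 to the other 5, and its start lies 9.11 kb from that of S100a6. Its counts were low, with a median of 6.55 CPM and no UMI in 69 cells, which limits any rho. Of 11650 genes, 0.0515% reached 0.3 with S100a4, 3.06% with S100a6 and 1.31% with S100b. The part of low counts in the S100a4 values was not tested.

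S100a1 and S100a13 start head to head, 42 bases apart in the GENCODE annotation. Their rho was 0.46, beside 0.47 for S100a1 with S100a6, which starts 98.5 kb away. The order of these values turned with the setting. S100a1 with S100a13 and S100a1 with S100a6 stood at 0.57 and 0.55 in cells with at least 40000 UMIs that were not fibroblast-rich, and at 0.49 and 0.42 in cells numbered up to 96. They stood at 0.34 and 0.43 after thinning, and at 0.32 and 0.30 as Pearson correlations of log2(CPM + 10). Across all cells the pair with the nearest starts did not have the highest rho of the group.

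S100a10 and S100a11, the distant pair, had a rho of 0.47 with each other. Between them and the near group, 4 of 12 pairs reached 0.3, with a median of 0.27. The highest of these was S100a10 with S100a14 at 0.51, and S100a10 with S100a6 stood at 0.42. With its pseudogene copies added, S100a11 had a rho of 0.50 to S100a10 and 0.31 to S100a6. S100b, on another chromosome, reached 0.3 with no member, and its 8 pairs ranged from -0.10 with S100a6 to 0.23 with S100a1.

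The correlations were also read in subsets of the same cells, which describes the known pattern and lends it no further weight. The first subset was the deep cells outside the fibroblast-rich class, those with at least 40000 UMIs. In those cells 15 of 28 chromosome 3 pairs were again at 0.3 or above, beside 2.39% of all gene pairs. S100a6 with S100a14 stood at 0.77. The 15 pairs were not all the same: S100a6 with S100a11 went from 0.35 to 0.28, and S100a1 with S100a11 from 0.27 to 0.32. After thinning, S100a1 fell below 0.3 with S100a14 (0.28) and with S100a16 (0.27). Split by title number, the rho of S100a6 and S100a14 was 0.80 in cells numbered up to 96 and 0.69 from 97, and that of S100a14 and S100a16 was 0.64 and 0.60. S100a6 with S100a11 was less even, at 0.23 up to 96 and 0.42 from 97.

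Expressed genes outside the family were read on one side of the near group only. Chtop, an mRNA export factor, and Snapin, a vesicle trafficking protein, are the nearest on one side, at 122.9 and 24.4 CPM. The next expressed genes there, Ilf2 and Ints3, were added after the data were seen. The nearest on the other side, Pglyrp4 and Gm35013, and those inside, Gm42674 and Gm19739, all averaged under 1 UMI per cell. Genes farther out on that other side were not read. Over 24 pairs of Chtop, Snapin, Ilf2 and Ints3 with the 6 near members, rho ranged from -0.29 to 0.11 with a median of -0.07. None reached 0.3, where 2.58% of all gene pairs did, so none among 24 is near that share. Snapin averaged 3.80 UMIs per cell and Ints3 8.08, and such low counts limit any rho. The lowest was Ints3 with S100a1, and Chtop with S100a6 was at -0.27.

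**Figure D3:**
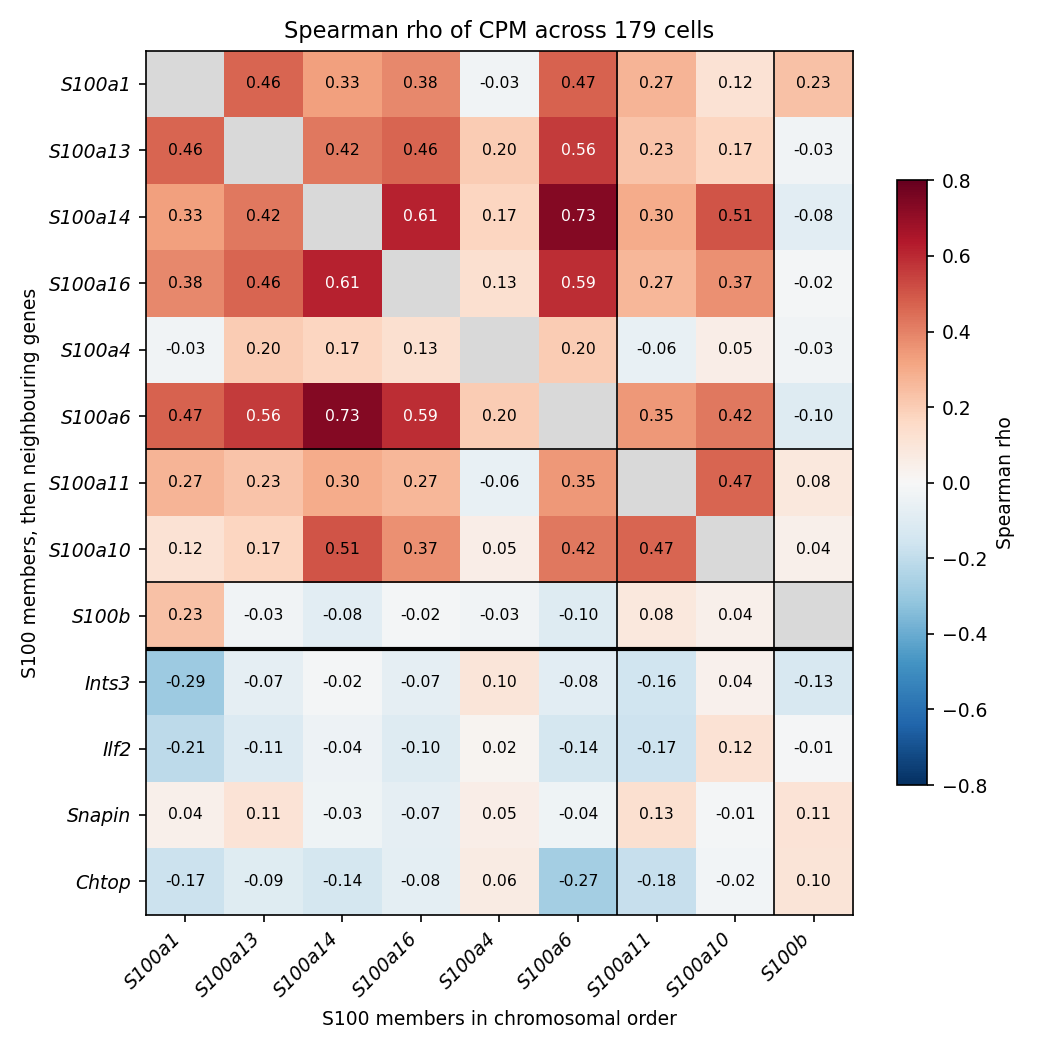
Spearman rho of CPM across all cells for each pair of members in chromosomal order (upper 9 rows) and for 4 neighbouring genes outside the family (lower 4 rows); red is positive, blue negative, and thin lines part the near group, S100a11 with S100a10, and S100b. The near group is red except for the row and column of S100a4, and the neighbours range from -0.29 to 0.13.

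Krt19 was the gene most like 3 of the near-group members. Over all genes that averaged 1 UMI per cell or more, Krt19, the keratin of ducts, came first for S100a6 (rho 0.84), S100a14 (0.78) and S100a16 (0.62). Leaving other S100 members aside, Phgr1, a gene of gut epithelium, was among the 3 most alike for the same members, at 0.73, 0.66 and 0.59. Serpinb6a, a protease inhibitor, stood at 0.75 to S100a6, 2200002D01Rik at 0.67 to S100a14, and Mgst3, a glutathione enzyme of membranes, at 0.59 to S100a16.

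S100a1 and S100a13 shared Cystm1, a small membrane protein gene, at 0.51 each. The others for S100a1 were Gabarap, an autophagy protein, at 0.50 and Ucp2, a mitochondrial carrier, at 0.50. For S100a13 they were Tmbim1 at 0.52 and Capg, an actin filament capping protein, at 0.48. The closest gene of all to S100a13 was a member, S100a6.

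Keratins were also among the genes most like the distant pair. S100a10 was most like Krt7 (0.58), Gm7665 (0.58) and Krt18 (0.56). S100a11 was most like its copies Gm7665 (0.82) and Gm12854 (0.75), which may share its reads, and then Krt18 (0.66). Krt7 and Krt18 were not particular to that pair, since S100a6 had a rho of 0.65 to Krt7 and 0.52 to Krt18, and S100a11 one of 0.25 to Krt7. S100a4 and S100b had no close companion among keratins. For S100a4 the highest rho were 0.31 to 0.32, with 1810058I24Rik, Plxdc2 and Cwh43, and for S100b they were 0.44 to 0.49, with Mthfs, Shisa5 and Erlec1.

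Against the summed level of Krt7, Krt8, Krt18 and Krt19, 7 of the 9 members had a rho of at least 0.3, beside 1.94% of 11655 other genes. The median was 0.50 for the members and -0.07 for the other genes. S100a6 led at 0.76, followed by S100a14 at 0.69, S100a16 at 0.58, S100a10 at 0.56 and S100a11 at 0.50. S100a4 at 0.11 and S100b at -0.14 were the members below 0.3. Clu, a secreted chaperone gene, had a rho of -0.06 to S100a6 and 0.47 to S100a11.

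Cp, which encodes a ferroxidase of the acute phase, was the gene with the lowest rho to S100a6 (-0.69), S100a14 (-0.61), S100a16 (-0.54) and S100a13 (-0.45). Other genes held that place for the remaining 5: Prmt1 for S100a1 (-0.48), Fgfr4 for S100a4 (-0.36), Appl2 for S100a10 (-0.36), Tspan4 for S100a11 (-0.44) and Eif3b for S100b (-0.32). The complement gene C3 stood at -0.65 and the iron-binding protein gene Lcn2 at -0.58 to S100a6. To S100a10 and S100a11 these were weak: Cp stood at -0.17 and 0.02, and Lcn2 at -0.08 and -0.01. Mki67, a marker of cycling cells, had a rho of -0.14 to S100a6, -0.32 to S100a1 and -0.33 to S100a11.

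Several marker lists moved with the members across cells, by the rho of their summed level. The mesothelial list was nearly all Msln and stood at 0.68 to S100a6 and 0.63 to S100a14, as did Msln alone. The squamous list, mostly Sprr1a and Ivl, stood at 0.59 to S100a6 and 0.55 to S100a14. The 7 epithelial genes were closest to S100a11, at 0.62. Gastric pit and mucous genes stood at 0.49 to S100a6, whereas YAP targets stood at -0.35 to it. Pericyte and smooth muscle genes stood at -0.34 to S100a6, but that list was at 0 CPM in the median cell, so many cells were tied. Acinar enzymes had a rho of -0.33 to S100a10.

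S100b and S100a11 moved with other lists. The immune list stood at 0.33 to S100b. That list was nearly all Cd14, and Ptprc, a leukocyte gene, had only 4 UMIs outside the fibroblast-rich cells. The injury and metaplasia list stood at 0.32 to S100b and at 0.39 to S100a11. For immediate early genes the values lay between -0.27 for S100a6 and 0.29 for S100b, for G2/M genes between -0.29 for S100a1 and 0.08 for S100a10, and for S phase genes between -0.21 and 0.21 for the same members. The fibroblast, endothelial and endocrine lists stayed between -0.24 and 0.12. The part of these lists in the S100 levels was not tested.

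**Figure D4:**
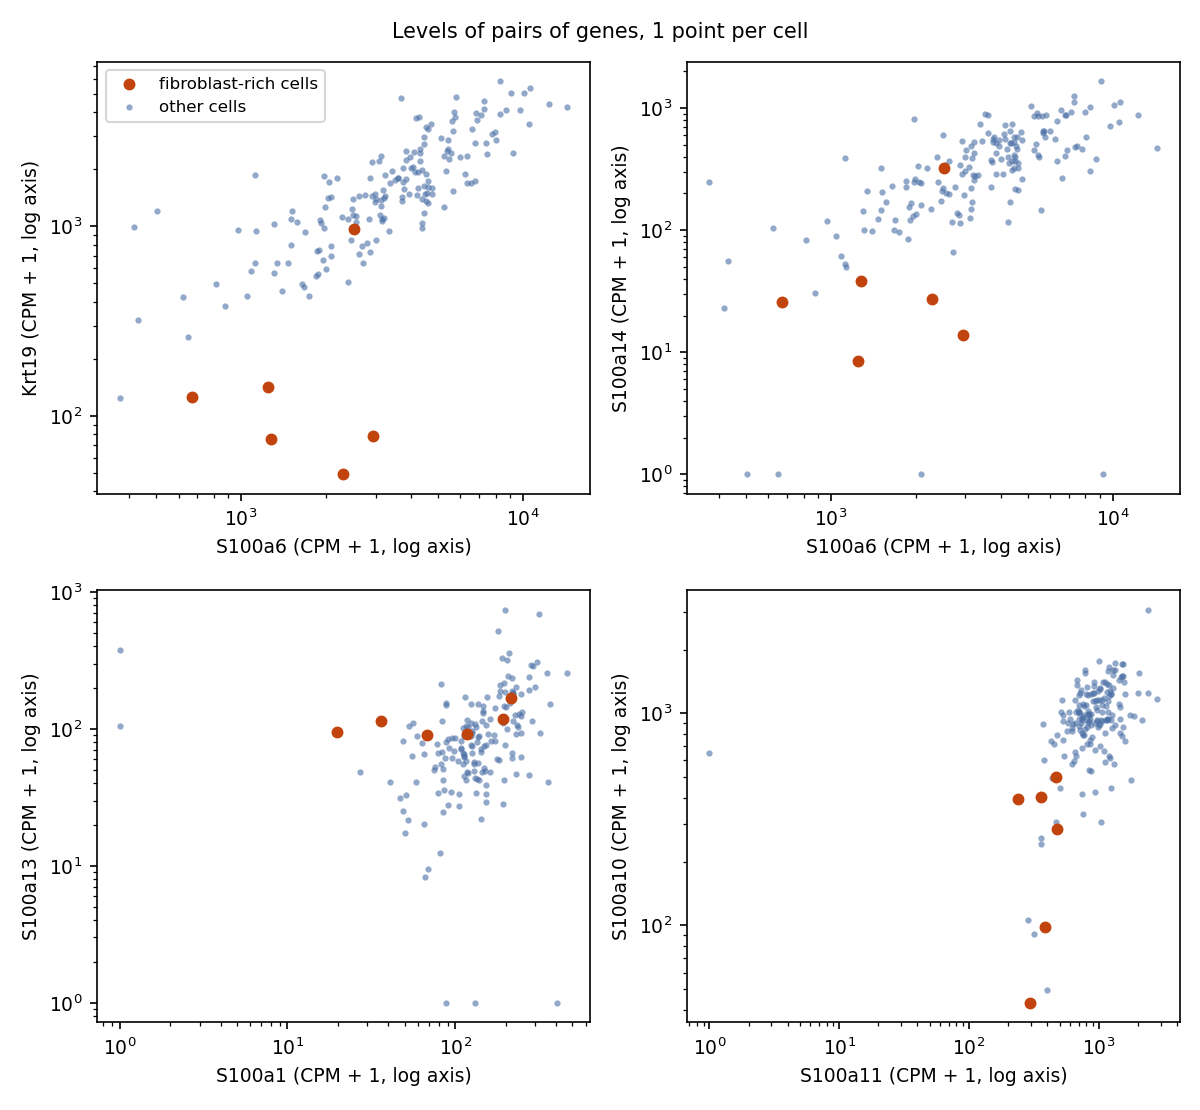
Levels of 4 pairs of genes as CPM plus 1 on log axes, with 1 point per cell; red points are the 6 fibroblast-rich cells and blue points the other cells. S100a6 and Krt19 (rho 0.84 over all cells) and S100a6 and S100a14 (0.73) lie along a line with most fibroblast-rich cells below it, whereas S100a1 with S100a13 and S100a11 with S100a10 scatter more.

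Known partners of S100 proteins were all present in the table, and 17 of the 20 listed averaged 1 UMI per cell or more. Anxa2, the annexin bound by S100a10, was the highest at 3974 CPM, followed by the scaffold Ahnak at 751, Anxa5 at 595, the surface glycoprotein Bsg at 546, Anxa1 at 500 and the actin capping subunit Capzb at 449 CPM. Anxa2 had a rho of 0.51 to S100a10 and 0.68 to S100a6, and it stood at 0.53 to S100a14 and 0.54 to S100a16. Of the 17 partners, 6 reached a rho of 0.3 with S100a6, where 3.06% of other genes did, and 4 reached it with S100a10, where 2.01% did. This was not particular to S100a6 and S100a10. With S100a14 6 partners reached it, beside 3.12% of other genes, and with S100a16 5 did, beside 1.91%. S100a11 had 2 such partners, beside 1.4% of other genes. S100a1 and S100a13 had 1 each, beside 1.33% and 1.14%. S100a4 and S100b had 0, beside 0.0515% and 1.31%. In the opposite direction 3 partners stood at -0.3 or below with S100a6, where 6.13% of other genes did: Anxa6 at -0.46, Trp53 at -0.44 and Myh10 at -0.40. With S100a10 no partner did, beside 0.103% of other genes, and with S100a16 none did, beside 1.54%. With S100a14 2 partners did, beside 2.15% of other genes. S100a1 had 3 such partners, beside 2.41%, and S100a13 had 2, beside 1.79%. S100a4, S100a11 and S100b had none, beside 0.0343%, 1.99% and 0.0172%. Those at 0.3 or above for S100a10 were Anxa2, Anxa5, Ahnak and the chaperone partner Fkbp4, at 0.30 to 0.51.

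Other textbook pairs were weaker. S100a11 with Anxa1 had a rho of 0.21, S100a13 with Fgf1 0.25, and S100a4 with the myosin gene Myh9 0.08. S100a6 with its ubiquitin ligase adaptor Cacybp stood at -0.05, and with Anxa11, another of its annexins, at 0.33. RNA levels say nothing of binding.

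The rest of the family was nearly silent. Of the 9 other S100 genes listed, 8 have an entry and together held 33.4 CPM. Only S100a9 (14.9 CPM) and S100a7a (10.96 CPM) averaged 1 UMI per cell or more, and both came from few cells. S100a9, a subunit of the neutrophil protein calprotectin, had a UMI in 26 cells, and 32.8% of its UMIs were in Acinar91. S100a8, its partner subunit, had 1 UMI in the whole data set. S100a7a, a skin member of the psoriasin type, had a UMI in 24 cells, with 39.7% of its UMIs in Acinar57. The fused-type genes, which join an S100 domain to long repeats in skin barrier proteins, held 72 UMIs in all over the 4 that have an entry.

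Fibroblast-rich cells had another S100 profile than the rest. Pooled levels in the 6 cells were set against those in the other cells, with 5 CPM added to each before the log2 ratio. Of the 9 members, 1 was at least 2-fold higher, as were 10.5% of 14997 genes with at least 50 UMIs, and 4 were at least 2-fold lower, as were 12.7% of those genes. In either direction 5 of 9 passed 2-fold, beside 23.3% of all genes. The median log2 ratio was -0.39 for the members and -0.14 for all genes.

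S100a4 was the member that was higher. It stood at 305 CPM (273 to 340) in fibroblast-rich cells and 12.1 CPM (10.8 to 13.5) in the others, a log2 ratio of 4.18, and the 6 cells held 50.2% of its UMIs. They did not share it evenly: Acinar5 had 855 CPM, Acinar44 492, Acinar105 100, Acinar182 67.3, Acinar188 5.61 and Acinar6 none, which at its depth allows up to 19.4 CPM. The highest of the other cells, Acinar162, had 186.8 CPM, so the classes overlapped. Without Acinar5 the log2 ratio was 3.24. It was 5.02 among title numbers up to 96 and 1.66 from 97, with 3 fibroblast-rich cells on each side, and 2.95 between the class medians.

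S100a14 was lowest relative to the other cells, at 73.02 CPM (57.7 to 91.1) in fibroblast-rich cells and 430 CPM (422 to 438) in the others, a log2 ratio of -2.48. Of its 78 UMIs in the 6 cells most were in Acinar188, which held 320 CPM of it, whereas the other 5 held 7.48 to 37.5 CPM. Without Acinar188 the log2 ratio was -3.93. That cell also had Krt19 at 970 CPM, against 48.2 to 142.1 CPM in the other 5 fibroblast-rich cells.

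S100a10 and S100a11 were lower in every fibroblast-rich cell than in the median other cell. S100a10 stood at 295 CPM (263 to 329) in fibroblast-rich cells and 1017 CPM (1005 to 1030) in the others, a log2 ratio of -1.77. S100a11 stood at 371 CPM (335 to 409) in fibroblast-rich cells and 978 CPM (966 to 990) in the others, a log2 ratio of -1.39. The classes still overlapped: 91.9% of the other cells for S100a10 and 92.5% for S100a11 were above the highest fibroblast-rich cell, and the remaining ones were not.

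S100a6 remained the highest member of the fibroblast-rich cells as a pool, at 1848 CPM (1767 to 1931) against 3820 CPM (3797 to 3844) in the others. Its log2 ratio of -1.05 was just past 2-fold, and it stood at -0.94, -0.89 and -0.98 without Acinar44, Acinar105 or Acinar182, which left 4 members past 2-fold. Among the cells its range was 670 to 2942 CPM in fibroblast-rich cells and 370 to 14390 CPM in the others.

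The remaining members lay within 2-fold. S100a1 stood at 109.5 CPM in fibroblast-rich cells and 144.6 CPM in the others (log2 ratio -0.39), and S100a16 at 301 CPM in fibroblast-rich cells and 363 CPM in the others (-0.26). S100a13 stood at 114.2 CPM in fibroblast-rich cells and 104.5 CPM in the others (0.12), and each of the 6 cells was above the other cells' median. S100b stood at 19.7 CPM in fibroblast-rich cells and 12.3 CPM in the others (0.51), from 21 UMIs, and its log2 ratio was -0.14 without Acinar182. S100a13 and S100a16, which flank S100a14 on the chromosome, were not lower by 2-fold as S100a14 was.

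Other marker lists moved with the fibroblast-rich class as well. The 7 epithelial genes, among them Epcam and Cdh1, summed to a median of 599 CPM (465 to 3611) in fibroblast-rich cells and 11222 CPM (3953 to 28175) in the others. Pericyte and smooth muscle genes, mainly Acta2 and Cspg4, had medians of 768 CPM (353 to 4381) in fibroblast-rich cells and 0 CPM (0 to 2505) in the others, with Myh11 and Rgs5 at 0 in the 6 cells. Endothelial genes had medians of 326 CPM (114.004 to 490.4) in fibroblast-rich cells and 8.97 CPM (0 to 379) in the others, almost all of it Eng in the 6 cells, where Tie1 was at 0 and Cdh5 at 1 UMI. The immune list had medians of 30.6 CPM (0 to 207) in fibroblast-rich cells and 506 CPM (0 to 2198) in the others, nearly all Cd14, and Ptprc, the marker of all leukocytes, was at 0 in the 6 cells. A count of 0 in those cells together allows up to 2.81 CPM.

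Epithelial and other lists were set beside the class in the same way. The keratins Krt7, Krt8, Krt18 and Krt19 had medians of 668 CPM (503 to 6398) in fibroblast-rich cells and 13286 CPM (4226 to 35028) in the others. The mesothelial list had medians of 22.7 CPM (7.48 to 258) in fibroblast-rich cells and 250.1 CPM (0 to 7189) in the others. It was nearly all Msln in the others, where Wt1 and Lrrn4 were at 0. Wt1 went the other way, with 17 UMIs in the fibroblast-rich cells, or 15.9 CPM (9.27 to 25.5). The squamous list had medians of 51.6 CPM (44.9 to 173.8) in fibroblast-rich cells and 314 CPM (0 to 11363) in the others, mainly Sprr1a and Ivl, with Krt5, Krt14 and Trp63 at 0 in the 6 cells. Glial and Schwann genes had medians of 10.7 CPM (4.38 to 78.5) in fibroblast-rich cells and 69.6 CPM (0 to 316) in the others. Endocrine genes had medians of 69.8 CPM in fibroblast-rich cells and 37.5 CPM in the others, and acinar enzymes of 148.4 CPM in fibroblast-rich cells and 128.3 CPM in the others. The part of all these lists in the S100 differences was not tested.

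S100b can mark glia and Schwann cells, so the other genes of that list were read beside it. They summed to 67.9 CPM in the median cell, almost all from Mbp, and their rho to S100b was 0.02. Mbp had a UMI in 89.7% of the thinned cells outside the fibroblast-rich class, so the list says little of glia. S100b was highest in Acinar86, at 153.3 CPM from a cell of 123908 UMIs that also held 2494 CPM of Krt19. Whether any S100b came from glia was not tested. Depth moved little with the members: rho to the cells' total UMIs lay between -0.14 for S100a6 and 0.20 for S100a4. S100a10 was lower in cells with more reads per UMI, with a rho of -0.32, whose part in its level was not tested.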

How the data were processed

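RNA of 179 single cells was read by Smart-seq3. The authors deposited 1 table of UMI counts and 1 of read counts, raw whole numbers over 32100 Ensembl identifiers, of which 31985 had a symbol. The submitters used STAR, featureCounts, GRCm38 and mm10, per the submitters' processing notes. Collapsing of UMIs and the counting of reads with several matches are both not given in the sources used here.

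All cells were kept and form 1 group with no animal or culture named, so no test was run. Doublets were not called. The members and the gene lists were chosen with earlier results of these data known. Genes are named by a rule: all members, S100 family genes and neighbours, the 6 highest partners, the 3 genes most alike to each member and markers that move with them; 1 further list is not reported here. The genes most opposite to a member, Ilf2, Ints3, Cp, C3 and Lcn2 were singled out after their values were seen.

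Pooled levels carry exact Poisson intervals at 95%. Correlations are Spearman's over genes that average 1 UMI per cell or more. Variation is the squared coefficient of variation, weighted by depth and less its Poisson part, over the running median of 101 similarly abundant genes, among those averaging 0.5 UMI or more. Fibroblast-rich cells have at least 1000 CPM of the fibroblast list, and no cell lay between 500 and 2000 CPM. They were set against the 173 other cells. Deep cells outside the class number 155. Shares are of 161 cells thinned to 40000 UMIs, which left out 18. Transcript copies were found with blastn 2.17.0 in GENCODE transcripts, at 80% identity over 200 bases or more. Motifs were searched in 250 bases of RefSeq promoters. The scripts were tested on simulated data.

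Alternatives covered read counts, deeper cells, title numbers up to 96 or from 97, scran size factors, other totals, weights, thinning and thresholds, and cells left out. Tools were scran 1.30.0 in R 4.3.3, and scipy 1.17.1, pandas 2.3.3, numpy 2.4.6 and matplotlib 3.10.9 in Python 3.11.15.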

Additional observations from a re-analysis of the deposited data

How the results depend on the processing

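No value past its threshold changed sign under the settings tried. The summed level of the members, 6749 CPM, was 7243 in reads, 7249 with scran size factors, 6555 for title numbers up to 96, 7021 from 97, 6882 without the fibroblast-rich cells, 6869 in deep cells without them, 6786 without the cell richest in enzymes, 6884 with equal weight per cell, 6823 without mitochondrial genes in the total and 7548 with the S100a11 copies. The median ratio of excess variation, 5.12, was 3.21 in reads, 3.25 without the fibroblast-rich cells and 3.27 in deep cells without them. The median rho of the chromosome 3 pairs ranged from 0.31 to 0.39. Of the members, 4 to 6 were past 2-fold between fibroblast-rich and other cells, and 4 to 5 when a fibroblast-rich cell was left out. Without a filter on low counts the share of all genes past 2-fold was 12.2%. Depth limits the rarer members: thinned to 10000 UMIs, S100a4 had a UMI in 13.1% of cells and S100b in 11.4%. The settings that leave out Acinar5, add the S100a11 copies, join deep cells with the loss of the fibroblast-rich ones or drop single fibroblast-rich cells were chosen after seeing the data. No paired analysis was possible because there is 1 group.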
